A study of Mus musculus with 8 samples.

Results

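The keratin family comprised every gene symbol made of Krt, a number and at most 1 further letter in the count files, and these symbols numbered 52 of the 24052 listed. Keratin-associated proteins were not taken. Of the 52 members, 28 encode type I and 24 encode type II keratins. RNA-Seq had been performed on the mouse medullary thymic epithelial cell (mTEC) line mTEC 3.10, of strain C57BL/6, and on E6, a mutant clone of the same line made with Crispr-Cas9 against exon 3 of *Aire*. Both were studied without thymocytes (before adhesion) and after co-culture with thymocytes of C57BL/6 mice (after adhesion), with 2 libraries in each of the 4 conditions and 8 libraries in all. Thymocytes had been added at 50 per mTEC for 12 h and the adherent ones were washed off with PBS. All cells were at passage 2, and the labels give 24 h of culture for WT after adhesion replicate 2, E6 before adhesion replicate 1 and E6 after adhesion replicate 1, and 12 h for the other 5 libraries. The labels give E6 the genotype Aire +/- and also call it a knockout, whereas the methods describe indels on both alleles. E6 is 1 clone, so that a difference between E6 and WT and a difference between this clone and its parent line cannot be told apart. The replicates are separate samples by their labels, and p-values therefore measure the spread between these samples only.

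Keratins are the intermediate filament proteins of epithelia. A type I (acidic) and a type II (basic) chain pair with each other, and these pairs assemble into filaments that span the cytoplasm and are anchored at desmosomes and hemidesmosomes. The pair in use reflects the kind of epithelium, with *Krt8* and *Krt18* in simple epithelia, *Krt5* and *Krt14* in basal cells of stratified epithelia and others in suprabasal layers, hair or wounded skin. In the thymus, KRT5 and KRT14 are used as markers of medullary, and KRT8 and KRT18 of cortical, epithelial cells, although both compartments are heterogeneous.

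Counts on genes ranged from 13506610 to 20145154 per library, so that 3 counts corresponded to 0.149 to 0.222 CPM (counts scaled by library size), a floor that covers counting error only. *Aire* itself had 0 counts in 6 libraries and 3 counts each in WT after adhesion replicate 2 and E6 after adhesion replicate 2, which does not check the labels. The epithelial marker *Epcam* was at 537 to 643 CPM in all libraries, and *Foxn1*, the transcription factor of thymic epithelium, at 11.1 to 14.8 CPM, whereas *Ccl21a*, *Enpep* and *Psmb11* had 0 counts throughout. The library WT after adhesion replicate 1 stood apart. Of its reads, 66.7% fell on genes, against 75.7% to 78.8% in the others. The slope of its log2 CPM for each 10 percentage points of gene GC content was -0.46, against slopes of -0.02 to 0.13 in the others. Of the 12 keratins tested, 11 had a GC content above the median of the tested genes (49.6%), with a keratin median of 55.3%. In bulk samples such as these, fewer cells of a type and less RNA per cell cannot be told apart.

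Promoter sequence from RefSeq (build GRCm38.p6, 250 bases before each annotated start) was found for 35 of the 52 keratins. Shown here are the last 100 bases before the start of *Krt13*, the called keratin for which a promoter was found, and of *Krt5*, the basal keratin that was measured at a far lower level than its partner *Krt14*. *Krt13* has 2 annotated starts, an inner one at chr11:100120578-100120677 and an outer one at chr11:100121567-100121666. The inner one lies 989 bases inside the gene as annotated by GENCODE. The window of *Krt5* is at chr15:101712906-101713005, and all 3 windows are on the minus strand and hold no annotated exon. Capitals mark the AP-1 letters TGANTCA.
Krt13 inner start: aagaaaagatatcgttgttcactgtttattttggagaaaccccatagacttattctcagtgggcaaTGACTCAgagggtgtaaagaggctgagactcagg
Krt13 outer start: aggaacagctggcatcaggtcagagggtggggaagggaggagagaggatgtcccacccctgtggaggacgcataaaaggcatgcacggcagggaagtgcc
Krt5: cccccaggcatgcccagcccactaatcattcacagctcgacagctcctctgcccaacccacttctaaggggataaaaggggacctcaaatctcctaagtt
In the 250 bases before the start, on either strand, TGANTCA was found in 1 keratin gene, *Krt13* (at both starts), and in 6.75% of all 32851 promoters. The TATA letters TATAAA were found in 17 of the 35 keratin genes, against 12.4% of all promoters. They were present in 11 of the 17 keratins with 0 counts in every library and in 2 of the 8 with at least 10 counts, *Krt10* and *Krt20*. The GC box GGGCGG was found in 2 of the 35 genes (32.7% of all promoters), with 4 matches before *Krt7*, and CCAAT in 14 (33.8%). The RefSeq starts of *Krt14*, *Krt7* and *Krt8* used in these counts lie 1518, 1360 and 140 bases inside the annotated genes, and the sequence before their outermost starts was not analysed here. These matches describe letters in a window and carry no result on binding.

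Few keratin genes were transcribed at a measurable level. Of the 52 members, 26 had 0 counts in every library (13 of type I and 13 of type II), 12 had between 1 and 9 counts at most in any library, and 14 reached 10 counts somewhere. All 9 hair follicle keratins grouped here under the inner root sheath (*Krt25*, *Krt26*, *Krt27*, *Krt28*, *Krt71*, *Krt72*, *Krt73*, *Krt74* and *Krt75*) were at 0. Of the 15 hair keratins, 10 were at 0 and none reached 10 counts, the highest being *Krt36* with 7. Among the 14 suprabasal keratins, 5 were at 0, including *Krt1* and *Krt4*, type II keratins of cornified skin and of mucosa, and 3 reached 10 counts (*Krt10*, *Krt13* and *Krt80*). All 5 simple epithelial and all 3 basal keratins reached 10 counts. *Krt42*, which belongs to no class used here, had at most 9. The genes lie in 2 clusters, with 27 members on chromosome 11 and 24 on chromosome 15 (GRCm38), and *Krt85* was not matched to the annotation. *Krt18* is the type I gene that lies in the type II cluster. It sits at its end beside *Krt8* (chromosome 15, 101996698 to 102004482), from 102028180 to 102032027. On chromosome 15 the abundant *Krt7* lies between *Krt81* with 0 counts and *Krt80*, at a mean of 237 CPM in WT and 314 in E6. On chromosome 11 *Krt14* lies between *Krt9* with at most 1 count and *Krt16* (27.7 and 25.1 CPM), as the plot in chromosomal order shows.

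**Figure D1:**
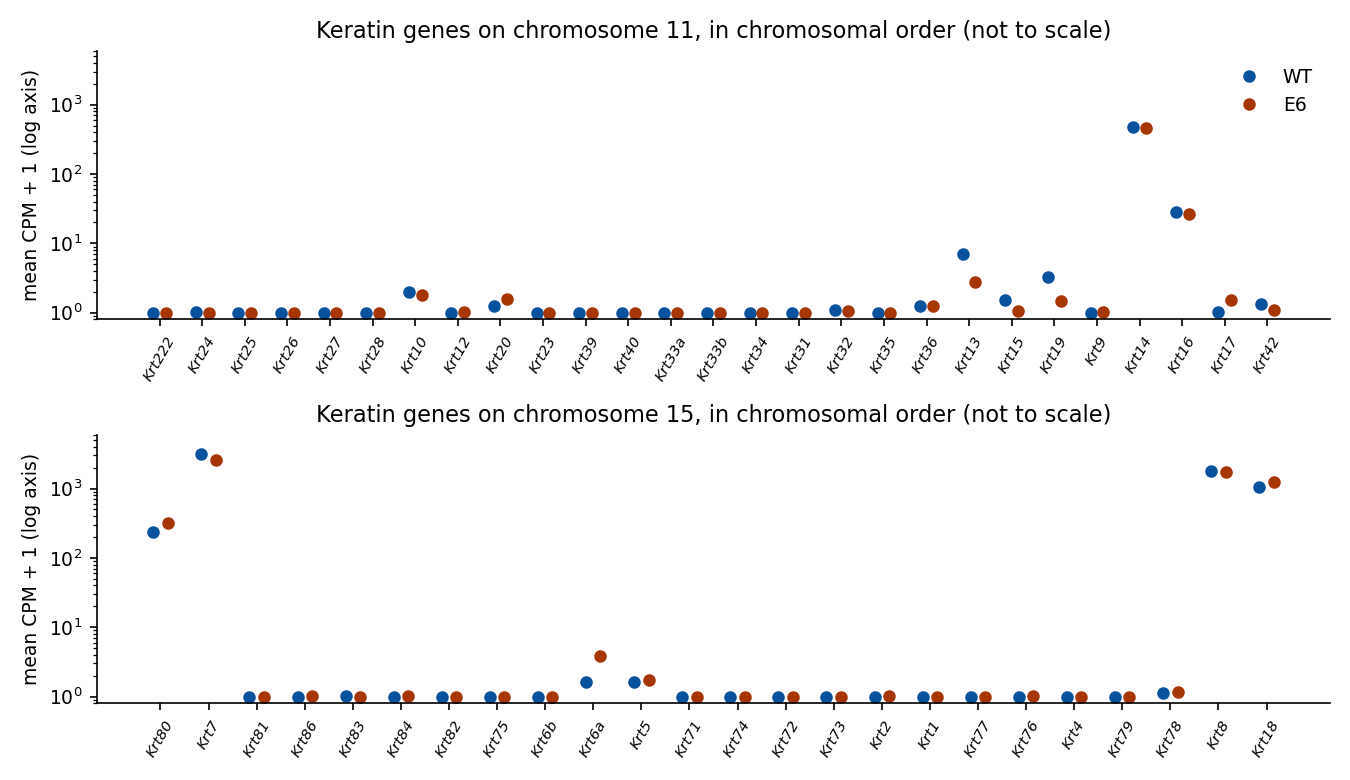
Mean CPM plus 1 (log axis) of each keratin over the 4 WT and the 4 E6 libraries, with genes in chromosomal order on chromosomes 11 and 15. The abundant genes are *Krt14* and *Krt16* on chromosome 11 and *Krt80*, *Krt7*, *Krt8* and *Krt18* on chromosome 15, and most of the other genes lie at 0 CPM.

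The keratin mRNAs of these cells were mainly those of simple epithelium. *Krt7*, *Krt8* and *Krt18* together held 86.9% to 90.6% of all keratin counts in a library, and with *Krt14* and *Krt80* they held 99.2% to 99.7%. Expressed per kb of the principal transcript, the mean CPM per kb over the 8 libraries was 899 ± 102 (SD, n = 8) for *Krt8*, 808 ± 144 for *Krt18* and 701 ± 123 for *Krt7*. These neighbours in the order differed by less than their spread over libraries. Of the 100-base windows of *Krt8* transcripts, 16.9% were shared with *Krt8-ps*, against 0% for *Krt18* and *Krt7*, so that reads of *Krt8* can be lost. *Krt14* followed with 273 ± 57.8 and *Krt80* with 89.8 ± 18.7 CPM per kb. Among 20488 genes ranked on this scale, *Krt8* was number 28, *Krt18* number 34, *Krt7* number 48, *Krt14* number 180 and *Krt80* number 762. *Krt16* was at 16.9 ± 4.53 and *Krt13* at 2.35 ± 1.44 CPM per kb, and the remaining 7 keratins with at least 10 counts had means from 0.172 to 0.851, too close to order against their spread. With all exons joined as the length, *Krt7* fell from 701 to 407 CPM per kb. The values of single libraries are plotted by class.

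**Figure D2:**
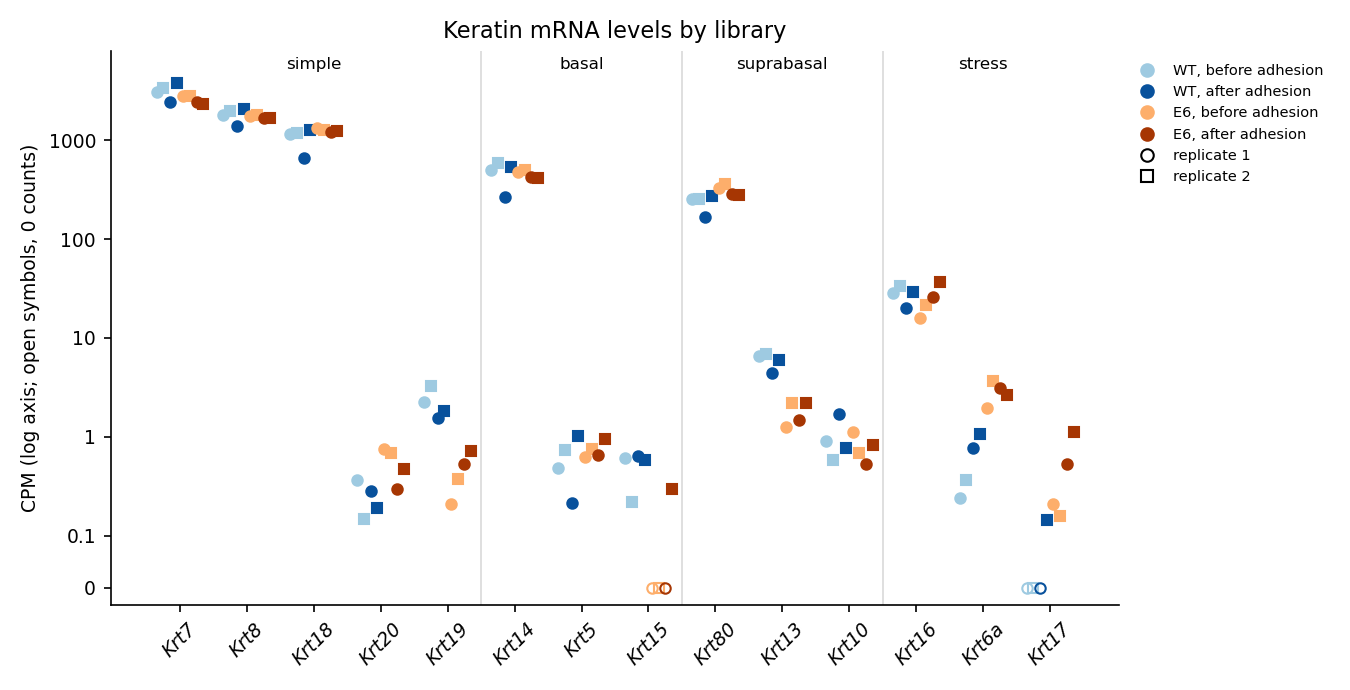
CPM (log axis) of the 14 keratins with at least 10 counts in some library, 1 point per library, grouped by class (circles, replicate 1; squares, replicate 2; open symbols, 0 counts). *Krt13* and *Krt19* are lower and *Krt6a* is higher in all 4 E6 libraries than in any WT library.

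*Krt7*, a type II keratin of ductal and glandular epithelia, was at 3030.1 and 3324 CPM in WT before adhesion, 2425 and 3809 in WT after, 2772 and 2802 in E6 before and 2449.9 and 2341 in E6 after adhesion (replicates 1 and 2). *Krt8*, the type II chain of simple epithelia, was at 1801, 1947, 1377, 2040.2, 1772, 1796, 1679 and 1665 CPM in the same order. *Krt18*, its type I partner, was at 1160.4, 1177, 664, 1265, 1311, 1277, 1201 and 1230.3 CPM. WT after adhesion replicate 1 was the lowest library for *Krt8* and *Krt18*. Without it all 4 E6 libraries were below the WT libraries for *Krt7* and, at the nearest by 1796 against 1801 CPM, for *Krt8*, whereas those for *Krt18* overlapped. This library was set aside after the values had been seen. The share of all genes that do not overlap in this way was not computed, so that this is no result on *Krt7* and *Krt8*. *Krt14*, the type I keratin of basal cells, was at 501, 591, 267, 536, 479, 499, 424 and 411 CPM, again lowest in WT after adhesion replicate 1. *Krt80*, a type II keratin linked to epithelial differentiation, was at 253, 255, 166 and 275 CPM in WT and at 329, 360.1, 284 and 282 CPM in E6. The E6 libraries lay above the WT libraries for *Krt80* without overlap. With all 8 libraries, 31.2% of the tested genes did not overlap between E6 and WT.

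*Krt5*, the type II partner of *Krt14* and the other keratin by which medullary cells are recognised, was nearly absent. Its counts were 8, 10, 3, 21, 9, 14, 11 and 16, or 0.213 to 1.02 CPM. Other genes by which thymic epithelium is sorted into compartments were mixed. The mTEC marker *Cldn4* was at 340.4 to 940 CPM, *Cldn3* at 0.119 CPM or less and the mTEC gene *Ccl21a* at 0. Of the cortical genes, *Enpep* and *Psmb11* were at 0, whereas *Ly75* was at 17.7 to 31.7 CPM and *Prss16* at 2.84 to 5.97 CPM. On the same list of thymic epithelial markers, *Fezf2*, *Cd80*, *Cd40*, *Tnfrsf11a*, *Cxcl12* and *Dll4* were at 0.358 CPM or less in every library. *H2-Aa* was at 0 before adhesion and at 1.14 CPM or less after it. *Krt15*, another type I keratin of basal cells, counted 10, 3, 9 and 12 in WT and 0, 0, 0 and 5 in E6, and was too low to be tested. Summed over the 52 members, keratins held 0.679%, 0.738%, 0.462% and 0.818% of the gene counts in the 4 WT libraries and 0.665%, 0.668%, 0.622% and 0.614% in the 4 E6 libraries. The WT range enclosed the E6 values on both sides, but its low end was WT after adhesion replicate 1 alone, the library that stood apart. The other WT values were above all E6 values. That split was made after the values had been seen, and it was not tested.

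In the comparison of clone E6 with WT, *Krt13* and *Krt19* were lower and *Krt6a* was higher in E6, and no abundant keratin was called. A keratin was called differentially expressed (DE) with a false discovery rate (FDR) below 0.05 in the quasi-likelihood test of edgeR, adjusted after Benjamini and Hochberg over all 11672 genes tested, and a fold change (FC) of at least 1.5. Averaged over both conditions, 3 of the 12 tested keratins were DE, 1 higher and 2 lower in E6. Over all genes, 11.3% were called, 5.22% higher and 6.13% lower. The median log2 FC of the 12 keratins was -0.05, against -0.01 for all genes. The filter on low counts asked for 0.613 CPM in 2 libraries. *Krt19* met it in all 4 WT libraries and 1 E6 library and *Krt20* only in both E6 libraries before adhesion, so that these counts are a description of the tested members and not of the family.

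*Krt13*, a type I keratin of internal stratified epithelia such as the oesophagus, had 108, 94, 62 and 125 counts in WT and 18, 41, 25 and 37 in E6. This amounted to 6.56, 6.93, 4.40 and 6.05 CPM in WT and 1.25, 2.20, 1.5 and 2.21 CPM in E6, with no overlap. Its log2 FC was -1.72 (SE 0.23, FDR 0.00363, edgeR), 3.29-fold lower in E6. It was called both before adhesion (log2 FC -1.94, FDR 0.0206) and after adhesion (log2 FC -1.50, FDR 0.0338). *Krt19*, the smallest type I keratin and one of simple and ductal epithelia, had 37, 44, 22 and 38 counts in WT and 3, 7, 9 and 12 in E6. In CPM it was at 2.25, 3.24, 1.56 and 1.84 in WT and at 0.208, 0.375, 0.539 and 0.717 in E6, and the groups did not overlap. The log2 FC was -2.29 (SE 0.29, FDR 0.00273, edgeR) with the conditions averaged and -3.15 (FDR 0.0111) before adhesion. After adhesion it was -1.43 and did not pass (FDR 0.0584).

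*Krt6a*, a type II keratin induced in wounded and hyperproliferative epidermis, moved the other way. Its counts were 4, 5, 11 and 22 in WT and 28, 68, 52 and 44 in E6, or 0.243, 0.368, 0.780 and 1.06 CPM against 1.94, 3.64, 3.11 and 2.63 CPM. All E6 libraries were above all WT libraries, and within WT the libraries after adhesion were above those before. The log2 FC was 2.40 (SE 0.31, FDR 0.00316, edgeR) averaged, 3.20 (FDR 0.0152) before and 1.61 (FDR 0.0461) after adhesion. Of the 100-base windows of *Krt6a* transcripts, 29.1% were shared with *Krt5*, *Krt6b* or the gene Gm5478, and *Krt6b* had 0 counts in every library. *Krt17*, a type I keratin of the same wound response, had 0, 0, 0 and 3 counts in WT and 3, 3, 9 and 19 in E6 and was too low to be tested. Per library, neither fold change nor test is given for it.

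*Krt16*, the type I partner of *Krt6a* in wounded epidermis, was not called between E6 and WT in the fit to all 8 libraries. It was at 28.3 and 33.5 CPM in WT before, 20.1 and 28.9 in WT after, 15.7 and 21.5 in E6 before and 25.9 and 37.1 in E6 after adhesion. The averaged log2 FC was -0.18 (95% confidence interval -0.61 to 0.25, FDR 0.521, edgeR). Before adhesion both E6 libraries were below both WT libraries, with a log2 FC of -0.72 that did not pass (FDR 0.161). The call before adhesion was made, with log2 FC of -0.71, when only the 4 libraries compared were fitted (FDR 2.49e-05, edgeR) and without WT after adhesion replicate 1 or replicate 2 (FDR 0.000493 and 0.000514), settings in which 12.7% of all genes were called. Of the windows of *Krt16* transcripts, 24.3% were shared with *Krt14* or Gm11597, so that reads can be lost or moved between these genes.

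None of the abundant keratins was called with the conditions averaged, and of their intervals those of *Krt8* and *Krt14* lay within a change of 1.5-fold in either direction. The log2 FC was -0.28 for *Krt7* (95% confidence interval -0.62 to 0.06), -0.05 for *Krt8* (-0.36 to 0.25) and 0.24 for *Krt18* (-0.19 to 0.67). It was -0.05 for *Krt14* (-0.53 to 0.42) and 0.40 for *Krt80* (0.04 to 0.76, FDR 0.109, edgeR). For *Krt80* the libraries did not overlap but the call was not made. Not overlapping, 4 libraries against 4, was common in this comparison, with 31.2% of all tested genes, and among the 12 keratins it held for 4 (*Krt13*, *Krt19*, *Krt6a* and *Krt80*), or 33.3%. *Krt20*, a type I keratin of intestinal epithelium, had 6, 2, 4 and 4 counts in WT and 11, 13, 5 and 8 in E6, with a log2 FC of 1.08 (FDR 0.110). *Krt10*, the type I keratin of suprabasal epidermis, and *Krt5* differed by -0.28 (-1.18 to 0.61) and 0.24 (-0.83 to 1.31), intervals too wide to limit a change of 1.5-fold.

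Taken separately, 3 keratins were DE before adhesion, 1 higher and 2 lower, where 5.01% of all genes were called, 2.45% higher and 2.56% lower. After adhesion 2 were DE, 1 higher and 1 lower, where 8.91% of all genes were called, 4.85% higher and 4.06% lower. Both counts rested on which libraries were used. A fit without 1 library leaves a condition with 1 library and applies the filter on low counts anew. The set of tested genes then changed, and in some of these fits it came to include *Krt17*. No call before or after adhesion held whichever library was left out, and the number of calls over all genes changed as well. The direction held. Before adhesion, log2 FC ranged over these fits from -2.43 to -1.61 for *Krt13*, -3.67 to -2.84 for *Krt19* and 2.66 to 3.57 for *Krt6a*. After adhesion it ranged from -1.80 to -1.22, from -1.65 to -1.24 and from 1.46 to 1.89 in the same order. With the conditions averaged, *Krt13*, *Krt19* and *Krt6a* were called whichever library was left out, and other keratins were added when a WT library after adhesion was left out.

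**Figure D3:**
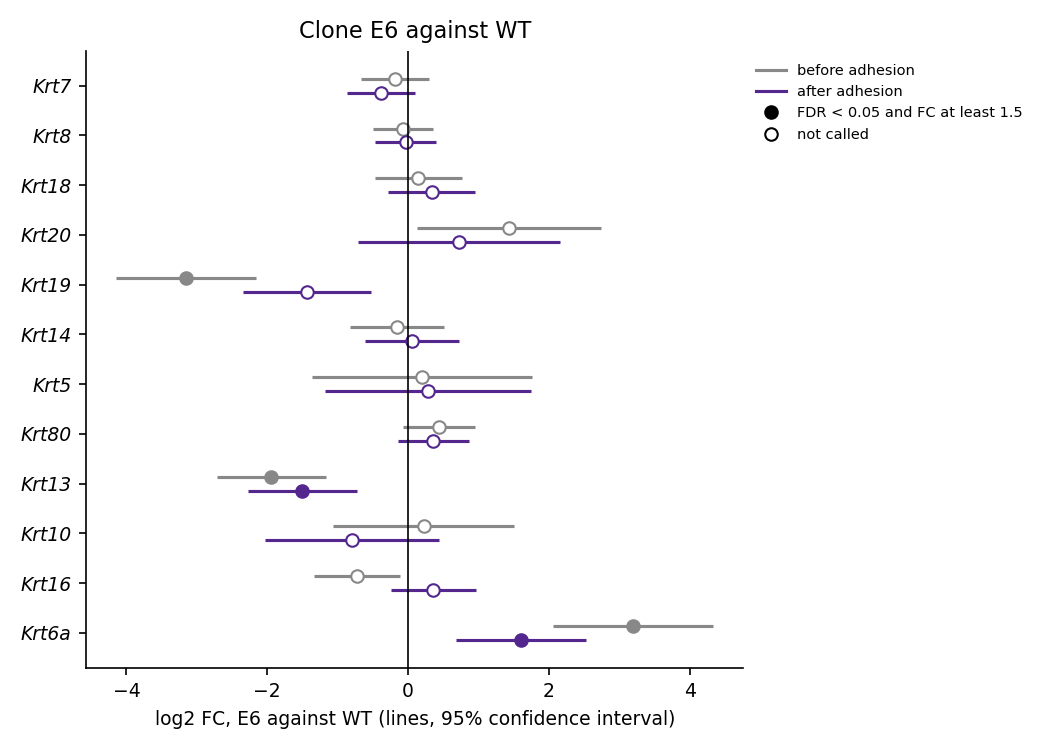
Log2 FC of E6 against WT with 95% confidence intervals for the 12 tested keratins, before (grey) and after (purple) adhesion, with filled points for calls. *Krt13* and *Krt6a* are called in both conditions and *Krt19* before adhesion only.

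The levels of the abundant keratins were also set against each other within a library, and relative to *Krt18* both *Krt7* and *Krt8* were lower in E6. The ratio of *Krt8* to *Krt18* CPM was 1.55, 1.65, 2.07 and 1.61 in the WT libraries and 1.35, 1.41, 1.40 and 1.35 in those of E6. The ratio of *Krt7* to *Krt18* was 2.61, 2.82, 3.65 and 3.01 in WT and 2.12, 2.19, 2.04 and 1.90 in E6. The ratio of *Krt80* to *Krt7* was 0.0836, 0.0766, 0.0683 and 0.0721 in WT and 0.119, 0.129, 0.116 and 0.120 in E6. None of these 3 ratios overlapped between E6 and WT, but they were chosen after the values had been seen, and no test is given. Of all 10 ratios among the 5 most abundant keratins, which share genes, 7 did not overlap, whereas those of *Krt7* to *Krt14*, *Krt8* to *Krt14* and *Krt18* to *Krt80* did. Over all pairs of the 11305 tested genes with counts in every library, 31.7% of ratios did not overlap between E6 and WT. On the scale of CPM per kb, the summed type II to type I ratio was 1.55, 1.58, 2.12 and 1.69 in WT and 1.40, 1.44, 1.40 and 1.35 in E6. In every library, then, type II keratin mRNA exceeded type I per length, and by more in WT. WT after adhesion replicate 1, the library with the GC slope, had the highest ratio of *Krt8* to *Krt18*, of *Krt7* to *Krt18* and of type II to type I, and *Krt18* (GC 56.4%) is richer in GC than *Krt7* (52.3%). The part of GC content in the ratios was not tested.

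**Figure D4:**
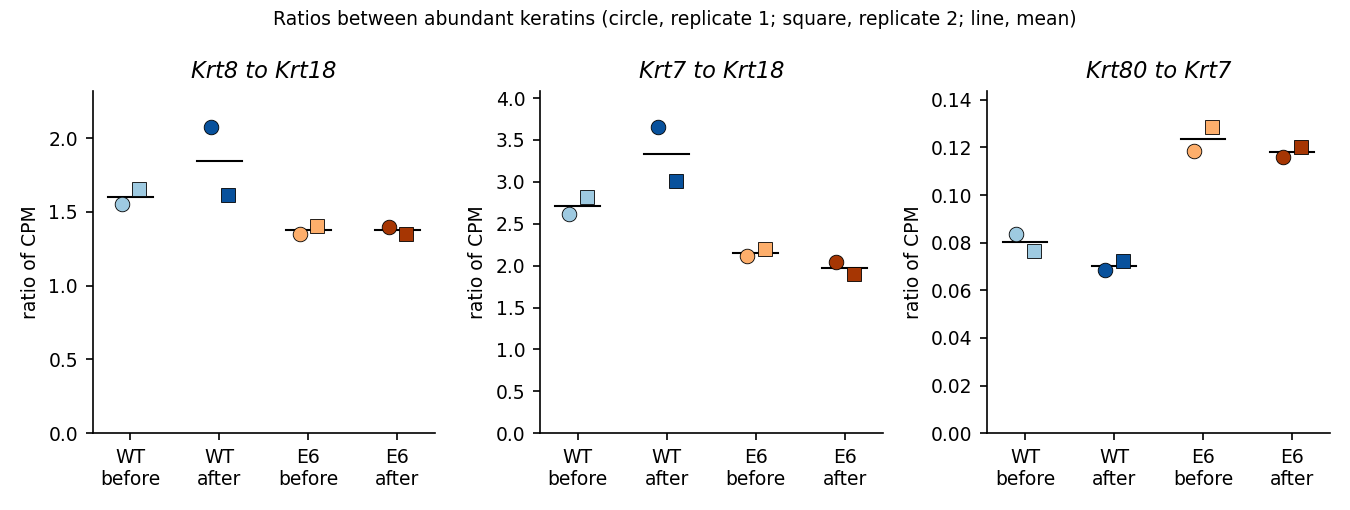
Ratios of CPM between *Krt8* and *Krt18*, *Krt7* and *Krt18*, and *Krt80* and *Krt7* in each library (circle, replicate 1; square, replicate 2; line, mean of 2), on axes that start at 0. WT lies above E6 in the first 2 panels and below it in the panel of *Krt80* to *Krt7*.

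Thymocyte adhesion was followed by no called change in any keratin. In WT, 0 of the 12 tested keratins were DE (smallest FDR 0.620, edgeR), and 0 of all tested genes, or 0%, were called (64 by DESeq2). At an unadjusted p below 0.05 there were 873 genes, 1 of them a keratin (*Krt6a*). In E6, 0 keratins were DE (smallest FDR 0.451) where 2% of all genes were called, 1.93% higher and 0.0771% lower, and with the cell types averaged 0 were DE (smallest FDR 0.458) where 1.89% were called, 1.79% higher and 0.103% lower. At an unadjusted p below 0.05, 1 keratin stood in each, *Krt16* in E6 and *Krt6a* averaged. DESeq2 called 0 keratins in each of these contrasts. Between the libraries after and before adhesion, 5.52% of tested genes did not overlap, and none of the 12 keratins was among them.

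The intervals of the adhesion effect lay within a change of 1.5-fold for *Krt7* and *Krt8* and reached past it, downward, for *Krt18*, *Krt14* and *Krt80*. With the cell types averaged, the log2 FC after adhesion was -0.12 for *Krt7* (95% confidence interval -0.46 to 0.22), -0.11 for *Krt8* (-0.42 to 0.19), -0.18 for *Krt18* (-0.62 to 0.25), -0.33 for *Krt14* (-0.81 to 0.14) and -0.24 for *Krt80* (-0.60 to 0.11). In WT the 2 libraries after adhesion were on opposite sides of those before for *Krt7*, *Krt8*, *Krt18* and *Krt80*. Without WT after adhesion replicate 2, 4 keratins were called lower after adhesion in WT (*Krt14* with log2 FC -1.04, *Krt18* with -0.83, *Krt80* with -0.63 and *Krt16* with -0.62), and 29.8% of all genes were then called. That result rests on WT after adhesion replicate 1 alone. Without replicate 1 in its place, 0 keratins were called.

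*Krt16*, *Krt19* and *Krt6a* differed most in how they moved with adhesion in the 2 cell types. *Krt16* had a log2 FC of -0.33 in WT and 0.76 in E6 (FDR 0.451), a difference of 1.08 (SE 0.37). *Krt19* had -0.67 in WT and 1.05 in E6, a difference of 1.72 (SE 0.60). *Krt6a* had 1.62 in WT (FDR 0.620) and 0.02 in E6, a difference of -1.59 (SE 0.65). None of the 3 differences passed the test of the difference itself (FDR 0.988 each, edgeR), in which 0 of 12 keratins and 0% of all genes were called. At an unadjusted p below 0.05 there were 297 genes, 3 of them keratins, and DESeq2 called 3 genes and 0 keratins. *Krt16* in E6 was called by edgeR when only the 4 E6 libraries were fitted (log2 FC 0.77, FDR 0.00571). In this fit 4.73% of all genes were called. With 1 library left out at a time, the log2 FC of *Krt16* in E6 ranged from 0.472 to 0.999. The difference then ranged from 0.80 to 1.38 for *Krt16*, 1.40 to 2.23 for *Krt19* and -1.96 to -1.05 for *Krt6a*. Whether a keratin was called in these fits depended on the library left out, as did the calls over all genes.

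**Figure D5:**
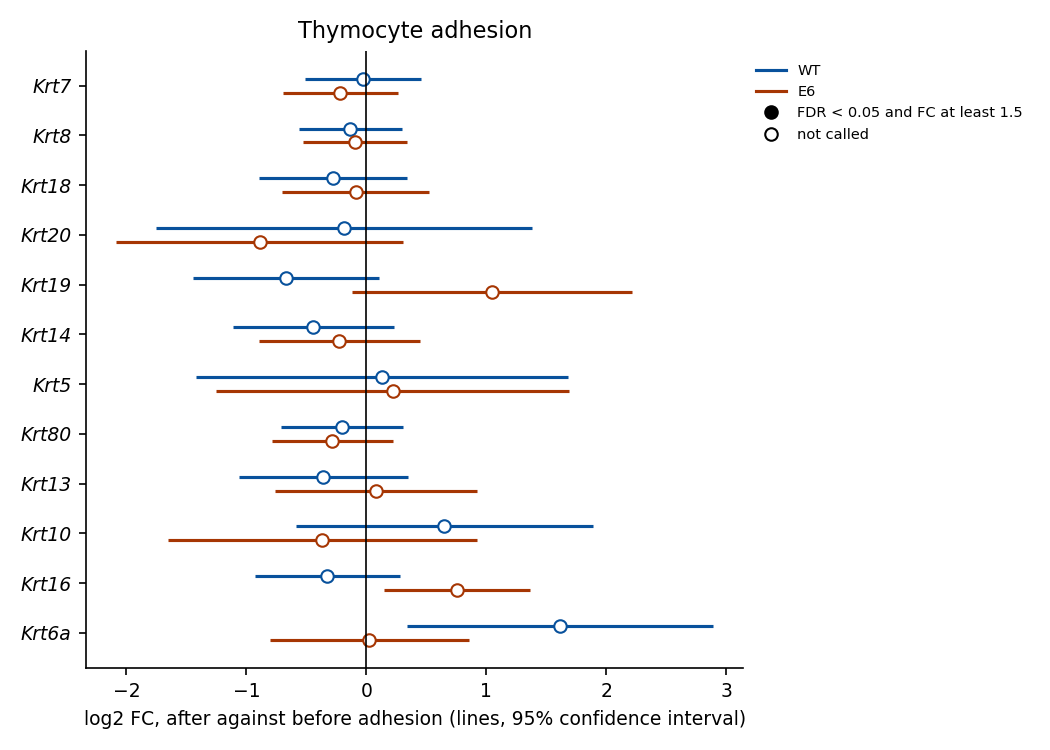
Log2 FC after against before adhesion with 95% confidence intervals for the 12 tested keratins in WT (blue) and E6 (orange-brown). All points are open because none was called, and *Krt16* and *Krt19* lie below 0 in WT and above 0 in E6.

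Markers of thymocytes were higher in the libraries after adhesion. Of the 15 analysed 12 were tested, and 11 were called higher after adhesion in E6, where 1.93% of all genes were, and 0 in WT, where no gene was called. All 12 were under the filter on low counts in every library before adhesion and passed it only through libraries after adhesion. The number called therefore describes the tested markers and is no separate support. The summed level of the 15 was 0.268 to 0.971 CPM before adhesion in both cell types, 13 to 16.8 CPM after adhesion in WT and 91.6 to 112 CPM after adhesion in E6. *Vim*, the intermediate filament gene of lymphoid and mesenchymal cells, moved with them, from 0.121 and 0.0737 CPM before to 0.922 and 0.871 after adhesion in WT, and from 0 and 0.0536 to 3.23 and 3.88 in E6 (log2 FC 4.82 averaged, FDR 0.00509, edgeR). The part of thymocyte RNA in the keratin counts was not tested. Of the 11 myeloid and B cell markers analysed, 6 were tested and 2 were higher after adhesion in E6 (*C1qa* and *Lyz2*), where 1.93% of all genes were. With the cell types averaged, 4 were higher (*C1qa*, *C1qb*, *Cd68* and *Lyz2*), where 1.79% of all genes were. Of these, *C1qa*, *C1qb* and *Lyz2* passed the filter only through libraries after adhesion, as *Vim* did. The sum of the list, dominated by *Csf1r*, ranged from 44.8 to 67.6 CPM over the 8 libraries. Of the 9 fibroblast markers 3 were tested, and *Thy1*, which is also a thymocyte marker, was higher after adhesion in E6, while *Lum* had 0 counts throughout.

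Among genes that work with keratins, the integrin gene *Itga6* was higher and the cadherin gene *Dsg3* lower in E6. These counts stand against the 11.3% of all genes called in this comparison. Of the 15 other intermediate filament genes, 5 were tested and 0 were called with the conditions averaged, with 1 (*Vim*) higher in E6 after adhesion. Of the 25 genes of desmosomes, hemidesmosomes and plakins, to which keratin filaments attach, 20 were tested, 1 was higher and 1 lower in E6, a share near that of all genes, with a median log2 FC of 0.08 against -0.01 for all genes. *Itga6*, the integrin subunit of hemidesmosomes, rose from 136 ± 10.1 CPM (SD, n = 4) in WT to 255 ± 16.2 in E6 (log2 FC 0.91, SE 0.09, FDR 0.00122, edgeR). *Dsg3*, the desmosomal cadherin of basal layers, fell from 5.05 ± 1.40 to 2.17 ± 0.0846 CPM (log2 FC -1.18, FDR 0.00502).

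Of the 16 genes analysed of the cornified envelope, the shell of cross-linked protein to which keratins are bound in terminal differentiation, 8 were tested, 2 were higher and 2 lower in E6, where 5.22% of all genes were higher and 6.13% lower. *Sprr1a*, an envelope precursor, was at 44.7, 47.9, 105 and 58.3 CPM in WT and at 178, 156, 204 and 212 in E6 (log2 FC 1.60, FDR 0.00172), while its paralog *Sprr1b* was lower (log2 FC -1.24, FDR 0.00943). *Csta1* was higher (log2 FC 2.34, at 0.838 CPM or less in every library) and *Scel*, which encodes sciellin, lower (log2 FC -1.17). *Csta1* had 4, 1, 2 and 1 counts in WT and 7, 15, 14 and 7 in E6. It met the filter on low counts only in E6 libraries, that is, through the group where it was higher. The count of 2 higher genes therefore describes the tested genes and not the list. Of the 21 regulators of keratin genes 18 were tested, 1 was higher and 3 lower, against the same shares. *Klf4*, a transcription factor of suprabasal differentiation, fell from 288 ± 31.7 CPM in WT to 159 ± 23.3 in E6 (log2 FC -0.86, FDR 0.000981). The grainyhead factors *Grhl1* and *Grhl3*, which act in epidermal differentiation, went in opposite directions (log2 FC 1.19 and -1.86), and *Cebpb* was lower (log2 FC -1.15). After adhesion, averaged over the cell types, *Zeb1*, a repressor of epithelial genes that T cells also express, was higher (log2 FC 1.61, FDR 0.0420), together with the thymocyte markers above. The tight junction gene *Cldn4*, an mTEC marker, was at 505 ± 110.3 CPM in WT and 813 ± 90.7 in E6 (log2 FC 0.69, FDR 0.0232), the only 1 of the 6 tested markers of thymic epithelium, out of 17 listed, that was called with the conditions averaged, where 11.3% of all genes were.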

How the data were processed

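The authors sequenced paired-end libraries (a stranded mRNA kit per the labels, a stranded total RNA kit per the methods), aligned the reads with STAR 2.5.0a to mm10 (GRCm38) and counted reads per gene with HTSeq, as the labels and methods state. The deposited values are raw counts per gene symbol. The gene annotation and the strand setting are not given in the sources used here, so that reads of *Krt6a*, *Krt7*, *Krt8*, *Krt10* and *Krt80* cannot be told apart from those of genes on the opposite strand (antisense genes, for *Krt8* a lincRNA) unless counting used strand. Summary lines of HTSeq, 21.2% to 33.3% of the fragments, were left out.

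The 52 keratins and the gene lists were chosen with earlier results of these data known. Positions, lengths and GC content came from GENCODE vM21 (GRCm38), to which 51 keratins matched, and promoters from RefSeq. Length was that of the principal transcript.

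The fit to all 8 libraries used edgeR 4.0.16 in R 4.3.3 (filterByExpr, TMM, 1 mean per condition, quasi-likelihood test, FDR below 0.05 and FC of at least 1.5), and 11672 genes were tested. The procedure was tested on simulated counts with 200 changed genes. CPM used TMM library sizes. Every keratin with at least 10 counts in some library was named, as were at most 4 called genes of each other list, *Vim* and cell type markers. Alternatives were RLE size factors, DESeq2 1.42.0, no filter, no FC limit, the replicate number as a block, GC correction (lowess, span 0.3), a fit to only the 4 libraries compared, leaving out 1 library at a time, CPM without TMM factors and, chosen after seeing the data, the length of all exons joined. Around their condition means, libraries with the same replicate number correlated at 0.22 for WT before and after adhesion and at -0.08 to 0.02 for the other 5 pairs of conditions (9768 genes). Intervals and floors cover counting error only where they rest on counts of 1 library, since no molecular identifiers were used. Some genes are not reported here.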

Additional observations from a re-analysis of the deposited data

Results flagged for a closer look

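In 3 of the 30 groups of 4 libraries examined, 1 library lay apart by the gap to its nearest neighbour. All 3 concern keratins too low to be tested. The limit gives about 1 in 20 by chance for 4 values of 1 normal group, which does not hold here. The groups mix libraries before and after adhesion. For *Krt15* in E6 and *Krt17* in WT, the other libraries were at 0, so that any count would have lain apart. *Krt15* was at 0.221 CPM (3 counts) in WT before adhesion replicate 2, against 0.580 to 0.638 CPM in the other WT libraries, and at 0.299 CPM (5 counts) in E6 after adhesion replicate 2, against 0 in the other E6 libraries. *Krt17* was at 0.145 CPM (3 counts) in WT after adhesion replicate 2, against 0 in the other WT libraries.

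*Krt19* moved in opposite directions with adhesion in the cell types. Both WT libraries after adhesion (1.56 and 1.84 CPM) were below both before adhesion (2.25 and 3.24), and both E6 libraries after adhesion (0.539 and 0.717) were above both before adhesion (0.208 and 0.375). The effects differed by 1.72 on the log2 scale, which did not pass edgeR's test of the difference (unadjusted p 0.0228, FDR 0.988). The counts in E6 were 3 to 12 per library.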

How the results depend on the processing

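*Krt13*, *Krt19* and *Krt6a* kept their direction and their call between E6 and WT, with the conditions averaged, under all 15 alternatives, with log2 FC from -1.96 to -1.56, -2.55 to -2.14 and 2.13 to 2.59. The number of keratins called was 3 to 5 there when each library was left out. It was 0 to 4 before adhesion, 0 to 9 after adhesion, 0 to 4 for adhesion in WT, 0 to 1 for adhesion in E6, 0 to 1 for adhesion averaged and 0 to 4 for the difference of the adhesion effects. After adhesion, 1 keratin was called with no filter and 1 with the replicate block (*Krt13* in both), where 806 of 15836 and 721 of 11672 genes were called. With only the 4 libraries compared 0 were, and no gene was called at all. GC correction brought *Krt19* in (log2 FC -1.61, FDR 0.0281). For adhesion in E6, 1 (*Krt16*) was called with only the 4 libraries compared, where 4.73% of all genes were. The replicate numbers did not pair the libraries. With the replicate block, 4 keratins were called before adhesion, where 383 of 11672 genes were. *Krt16* was added there (log2 FC -0.74, FDR 0.0489, edgeR), as it was with only the 4 libraries compared. With the conditions averaged, the block gave 3 called keratins, where 1274 of 11672 genes were called. Among keratins that were not called, the averaged log2 FC changed sign when a library was left out. It ranged from -0.53 to 0.034 for *Krt10* and from -0.047 to 1.06 for *Krt5* (sign changed without WT after adhesion replicate 1), from -0.24 to 0.26 for *Krt14* (without WT after adhesion replicate 2 or, at 0.011, WT before adhesion replicate 2) and from -0.16 to 0.12 for *Krt8* (without WT after adhesion replicate 2). Leaving out a library gives a condition with 1 library, which is then assumed to vary like the others. The cause of these changes was not tested. Depth limits *Krt5*, *Krt10*, *Krt15*, *Krt17*, *Krt19*, *Krt20* and *Krt6a*, which had fewer than 70 counts in every library.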
